A study of Homo sapiens with 6 samples.

Results

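The genes described here are 9 core genes of transforming growth factor beta (TGF-β) and SMAD signalling. They are the ligands *TGFB1* and *TGFB2*, the receptors *TGFBR1* and *TGFBR2*, the signal-carrying *SMAD2*, *SMAD3* and *SMAD4*, and the inhibitory *SMAD6* and *SMAD7*. They were chosen by gene symbol from a table of 60480 gene identifiers, and all 9 were among the 19778 genes with enough counts to be tested. Poly(A) RNA was sequenced from OE-19, an established human cell line of adenocarcinoma of the esophagogastric junction (AEG) grown in RPMI1640 with serum. One group of 3 libraries was the control, titled shControl and also labelled Puro. The other group of 3 libraries carried an shRNA against *IGF2BP3* (shIGF2BP3, called IGF2BP3 KD). IGF2BP3 is an RNA-binding protein that reads m6A, a methyl mark on RNA, and the comparison asks which transcripts change in level when it is depleted. All cells were of this 1 line, and the sources do not say whether the 3 IGF2BP3 KD libraries share 1 hairpin. Nothing in the labels says that the 3 libraries of a group came from separate cultures, so the p-values measure the spread between these libraries, which may be technical.

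TGF-β ligands are secreted in a latent form and, once released, bind the type II receptor, which recruits and phosphorylates the type I receptor. The type I receptor phosphorylates SMAD2 and SMAD3, which join SMAD4 and enter the nucleus to switch genes on or off. The inhibitory SMADs restrain signalling by receptors of the wider TGF-β family. Both are themselves switched on by such signalling, SMAD7 chiefly by TGF-β and SMAD6 chiefly by the related bone morphogenetic proteins (BMPs). In epithelial cells TGF-β is known for halting the cell cycle and for promoting a mesenchymal state.

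Library totals ranged from 53424071 to 69989087 counts. Counts were scaled between libraries with edgeR's TMM method and are given as CPM, the counts of a gene per 1000000 counts of the scaled library total, with the SD over the 3 libraries of a group. A gene is called lower or higher when edgeR's quasi-likelihood test of IGF2BP3 KD against control gave it a p under 0.05 after Benjamini-Hochberg adjustment over all 19778 genes. A negative log2 fold change means a lower level after knockdown, and each is given with its standard error (SE). For 1 gene, 3 libraries against 3 allow a two-sided exact permutation p of 0.1 at the smallest. *IGF2BP3* itself was at 108, 106 and 112 CPM in control replicates 1 to 3 and at 14.4, 12.8 and 12.6 CPM in IGF2BP3 KD replicates 1 to 3, a log2 fold change of -3.03 (SE 0.06, adjusted p = 3.1e-10). All 6 epithelial marker genes (*EPCAM*, *KRT8*, *KRT18*, *KRT19*, *CDH1*, *CLDN7*) were expressed in every library, with a summed level of 5859 to 5959 CPM in control and 5882 to 6033 CPM in IGF2BP3 KD cells. Among them *EPCAM* and *CLDN7* were called higher (log2 fold changes 0.15 and 0.13) and *KRT8* and *KRT18* lower (-0.06 and -0.07). Of 5 immune markers, *LYZ* was at 2548 ± 132 and 2534 ± 39.6 CPM (SD, n = 3) in control and IGF2BP3 KD cells and was not called, and *CD68* was called higher, from 35.8 ± 2.62 to 51.9 ± 2.89 CPM (log2 fold change 0.54, adjusted p = 1.9e-04). The other 3 were near 0, *CD3E* at 0 in every library, and the part of these marker changes in the results below was not tested. Exons of other genes cover 85.6% of the exonic bases of *CD68* and 34.7% of those of *LYZ*, so their counts are uncertain. The 4 endothelial markers summed to at most 0.560 CPM in any library.

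Of the 9 genes, 3 were called lower in IGF2BP3 KD cells (*TGFBR1*, *SMAD6* and *SMAD7*), against 10.6% of all genes tested. Only *TGFBR2* was called higher, against 9.87% of all genes tested, and 5 of the 9 genes passed the test in neither direction. The values of both groups did not overlap in 6 of the 9 genes, against 35.8% of all genes tested. The median log2 fold change of the 9 genes was -0.11 and that of all genes tested was 0.01. The 3 lower genes and *TGFBR2* kept their direction and their call when any 1 library was left out.

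**Figure D1:**
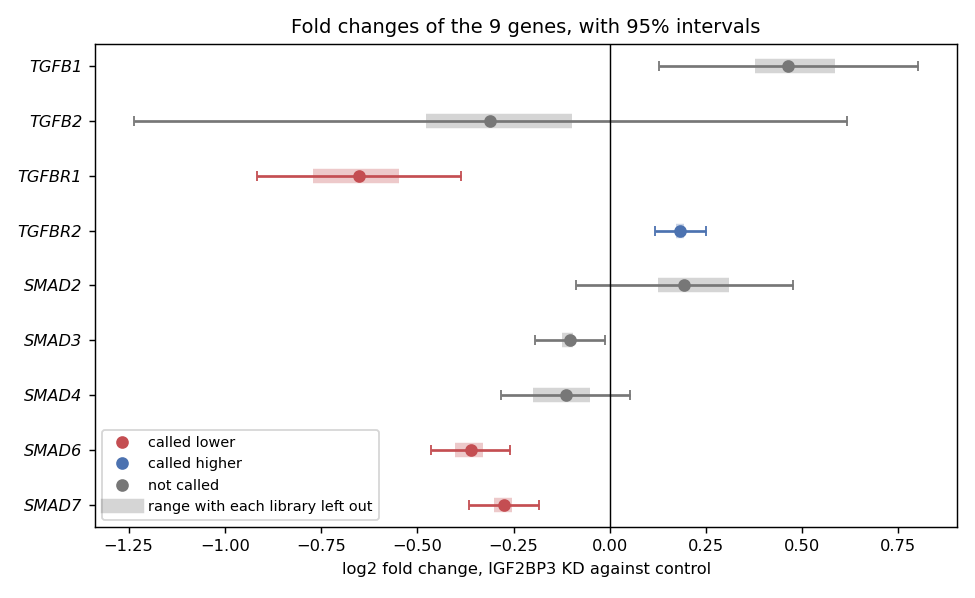
Log2 fold change (x axis, IGF2BP3 KD against control) of each of the 9 genes, with a point for the edgeR estimate, a line for its 95% confidence interval and a pale band for the range with each library left out in turn; red marks genes called lower, blue called higher and grey not called. *TGFBR1* lies lowest at -0.65, *SMAD6* and *SMAD7* follow at -0.36 and -0.27, *TGFBR2* lies above 0 at 0.18, and the interval of *TGFB2* is the widest.

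In the 3′ untranslated regions (3′ UTRs) of these genes, 3 short words were searched on the sense strand of the GENCODE v44 transcripts. TGGAC is the DNA spelling of the word that the study found at IGF2BP3-bound sites. GATTACT and ACACATC were picked in earlier work on these same libraries because transcripts that hold them differed in fold change, so they are shown as descriptions. Among 13753 tested coding genes with a 3′ UTR of at least 50 bases, 7.79% hold GATTACT, 9.65% hold ACACATC and 62.2% hold TGGAC. A long 3′ UTR is likelier to hold any word. Places in *TGFBR1*, *TGFB1*, *SMAD4*, *SMAD6* and *SMAD7* are therefore set beside 3′ UTRs of similar length, from 20% shorter to 25% longer. Shares over sets of genes are not matched for length. A match says only that the letters are there.

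The type I receptor gene *TGFBR1* (ENSG00000106799, chr9:99104038-99154192, plus strand of hg38) encodes the kinase that phosphorylates SMAD2 and SMAD3. Its level was 17.8, 16.8 and 14.6 CPM in control replicates 1 to 3 and 8.80, 12.1 and 10.4 CPM in IGF2BP3 KD replicates 1 to 3. Every IGF2BP3 KD library lay below every control library, and replicate 1 of the IGF2BP3 KD group was the lowest of all 6. The mean was 16.4 ± 1.61 CPM (SD, n = 3) in control and 10.4 ± 1.65 CPM (SD, n = 3) after knockdown. The log2 fold change of -0.65 (SE 0.12, adjusted p = 0.00262) was the largest fall among the 9 genes, and it lay between -0.77 and -0.55 when each library was left out in turn. *TGFBR1* shares no exonic base with another gene.

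The 3′ UTR of *TGFBR1* has 4887 bases and holds GATTACT at 2 places, while 19.7% of 1226 3′ UTRs of similar length hold it at all. Both places lie in the last exon, exon 9 of 9, and they are printed with 11 bases on each side because *TGFBR1* is the only one of the 3 lower genes that holds the word. The same 3′ UTR holds ACACATC at 1 place, while 22.8% of those of similar length hold that word. The capitals mark GATTACT in the first lines and ACACATC in the last.
TGFBR1, base 2512 after the stop codon, chr9:99151806-99151834, plus strand: ggatggatcatGATTACTgtcgataactg
TGFBR1, base 3530 after the stop codon, chr9:99152824-99152852, plus strand: tctctgttttgGATTACTggaatacccat
TGFBR1, base 3324 after the stop codon, chr9:99152618-99152646, plus strand: tatcccattagACACATCatcaaaagctt

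The type II receptor gene *TGFBR2* (ENSG00000163513, chr3:30606601-30694142, plus strand of hg38) encodes the kinase that binds ligand first. Its level was 153, 154 and 157 CPM in control replicates 1 to 3 and 176, 178 and 174 CPM in IGF2BP3 KD replicates 1 to 3. Both groups were tight and lay apart. The log2 fold change was 0.18 (SE 0.03, adjusted p = 0.00126), the smallest change among the called genes of the 9. It was measured on 9207 to 11048 counts per library, the deepest coverage of the 9 genes. *TGFBR2* holds neither GATTACT nor ACACATC in its 3′ UTR and shares no exonic base with another gene.

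The receptor genes thus moved in opposite directions. Within each library the *TGFBR2* level divided by the *TGFBR1* level was 8.61, 9.19 and 10.7 in control replicates 1 to 3 and 20.0, 14.7 and 16.7 in IGF2BP3 KD replicates 1 to 3. The mean ratio was 9.51 ± 1.10 (SD, n = 3) in control and 17.1 ± 2.69 (SD, n = 3) in IGF2BP3 KD cells, with no overlap between groups. The two-sided exact permutation test gave p = 0.1, the smallest that this design allows. Every IGF2BP3 KD library lay below every control library in *TGFBR1* and above every control library in *TGFBR2*. The ratio therefore had to separate the groups and give this p, so the separation and the test add nothing to the calls of these genes. The ratio sets CPM values against each other without correction for gene length, so its absolute size is not a ratio of molecules.

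The ligand gene *TGFB1* (ENSG00000105329, chr19:41301587-41353922, minus strand of hg38) was not called. Its level was 4.19, 4.52 and 4.22 CPM in control replicates 1 to 3 and 4.85, 6.36 and 6.62 CPM in IGF2BP3 KD replicates 1 to 3. All 3 IGF2BP3 KD libraries lay above the control libraries, with replicate 1 nearest to them. The log2 fold change was 0.46 (SE 0.15, 95% confidence interval 0.13 to 0.80, adjusted p = 0.0545). The gene was called higher by DESeq2 (adjusted p = 0.0423), with genes kept only at 10 or more counts in every library (adjusted p = 0.0449), and without IGF2BP3 KD replicate 1 (log2 fold change 0.59, adjusted p = 0.0227). *TGFB1* shares 215 exonic bases with *HNRNPUL1* on the opposite strand, and the strand setting of the counting was not stated, so its count is uncertain to that extent.

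The 3′ UTR of *TGFB1* is short, with 729 bases, and holds GATTACT at 1 place in exon 7 of 7. Of 1606 3′ UTRs of similar length, 2.49% hold the word. The place is printed because *TGFB1* had a fold change above 0 while *TGFBR1* with the same word fell.
TGFB1, base 577 after the stop codon, chr19:41330458-41330486, minus strand: agagatgggagGATTACTtgaatccaggc

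*TGFB2* (ENSG00000092969, chr1:218345336-218444619, plus strand of hg38), which encodes another TGF-β ligand, was near the floor of the measurement. Its counts were 38, 35 and 24 in control replicates 1 to 3 and 26, 27 and 17 in IGF2BP3 KD replicates 1 to 3, or 0.489 ± 0.0734 and 0.395 ± 0.111 CPM (SD, n = 3). The groups overlapped, and the log2 fold change of -0.31 had a 95% confidence interval from -1.24 to 0.62 (adjusted p = 0.689). At this depth a fall by 1 on the log2 scale lies within that interval. Exons of *TGFB2-AS1* on the opposite strand and *TGFB2-OT1* on the same strand cover 34.2% of its exonic bases, so its counts are uncertain.

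Of the SMADs that carry the signal, none passed the test. *SMAD3* (ENSG00000166949, chr15:67063763-67195173, plus strand of hg38), a DNA-binding effector of TGF-β, was at 72.8, 73.9 and 73.2 CPM in control replicates 1 to 3 and at 67.4, 70.1 and 67.2 CPM in IGF2BP3 KD replicates 1 to 3. The groups did not overlap, but the difference was small, with a log2 fold change of -0.10 (SE 0.04, 95% confidence interval -0.19 to -0.01, unadjusted p = 0.0294, adjusted p = 0.110 by edgeR).

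*SMAD2* (ENSG00000175387, chr18:47808957-47931146, minus strand of hg38), the other receptor-activated SMAD of the TGF-β branch, was at 9.46, 7.55 and 7.55 CPM in control replicates 1 to 3 and at 9.58, 8.33 and 10.2 CPM in IGF2BP3 KD replicates 1 to 3. These values overlapped, and the log2 fold change was 0.19 with a 95% confidence interval from -0.09 to 0.48 (adjusted p = 0.353). *SMAD4* (ENSG00000141646, chr18:51028528-51085045, plus strand of hg38), the partner shared by the TGF-β and BMP branches, was at 36.1, 34.1 and 29.3 CPM in control and at 31.1, 29.9 and 30.9 CPM in IGF2BP3 KD replicates 1 to 3. Control replicate 3 lay below all IGF2BP3 KD libraries, and the log2 fold change was -0.11 with a 95% confidence interval from -0.28 to 0.05 (adjusted p = 0.358). Exonic bases shared with other genes numbered 182 for *SMAD3* and 967 for *SMAD4*.

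Both *SMAD2* and *SMAD4* hold GATTACT without having passed the test. *SMAD4* holds it at 1 place in a 3′ UTR of 6575 bases, a length at which 27% of 671 3′ UTRs hold it. *SMAD2* holds it at 3 places, but its annotated 3′ UTR of 32870 bases has no others of similar length to set beside it. The place in *SMAD4*, in exon 12 of 12, is printed beside those of *TGFBR1* for comparison.
SMAD4, base 1855 after the stop codon, chr18:51080311-51080339, plus strand: tttgtactcttGATTACTtacaaattctt

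Both inhibitory SMAD genes fell. *SMAD6* (ENSG00000137834, chr15:66702236-66782849, plus strand of hg38) was at 91.7, 102 and 97.5 CPM in control replicates 1 to 3 and at 73.5, 77.4 and 75.5 CPM in IGF2BP3 KD replicates 1 to 3. The groups lay far apart relative to their spread. The mean was 97.0 ± 5.003 CPM (SD, n = 3) in control and 75.5 ± 1.96 CPM (SD, n = 3) after knockdown, a log2 fold change of -0.36 (SE 0.05, adjusted p = 2.5e-04).

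*SMAD7* (ENSG00000101665, chr18:48919853-48950965, minus strand of hg38) was at 87.3, 88.7 and 90.3 CPM in control replicates 1 to 3 and at 70.8, 73.5 and 75.7 CPM in IGF2BP3 KD replicates 1 to 3. Here too no IGF2BP3 KD library reached the control libraries. The mean was 88.8 ± 1.51 CPM (SD, n = 3) in control and 73.4 ± 2.48 CPM (SD, n = 3) after knockdown, a log2 fold change of -0.27 (SE 0.04, adjusted p = 7.6e-04). The *SMAD6* level divided by the *SMAD7* level was 1.09 ± 0.0489 (SD, n = 3) in control and 1.03 ± 0.0292 (SD, n = 3) in IGF2BP3 KD cells, which overlap (two-sided exact permutation test, p = 0.2). In contrast, *SMAD7* divided by *SMAD3* went from 1.20, 1.20 and 1.23 in control to 1.05, 1.05 and 1.13 in IGF2BP3 KD replicates 1 to 3, without overlap (two-sided exact permutation test, p = 0.1, the smallest possible). Neither *SMAD6* nor *SMAD7* shares exonic bases with another gene.

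**Figure D2:**
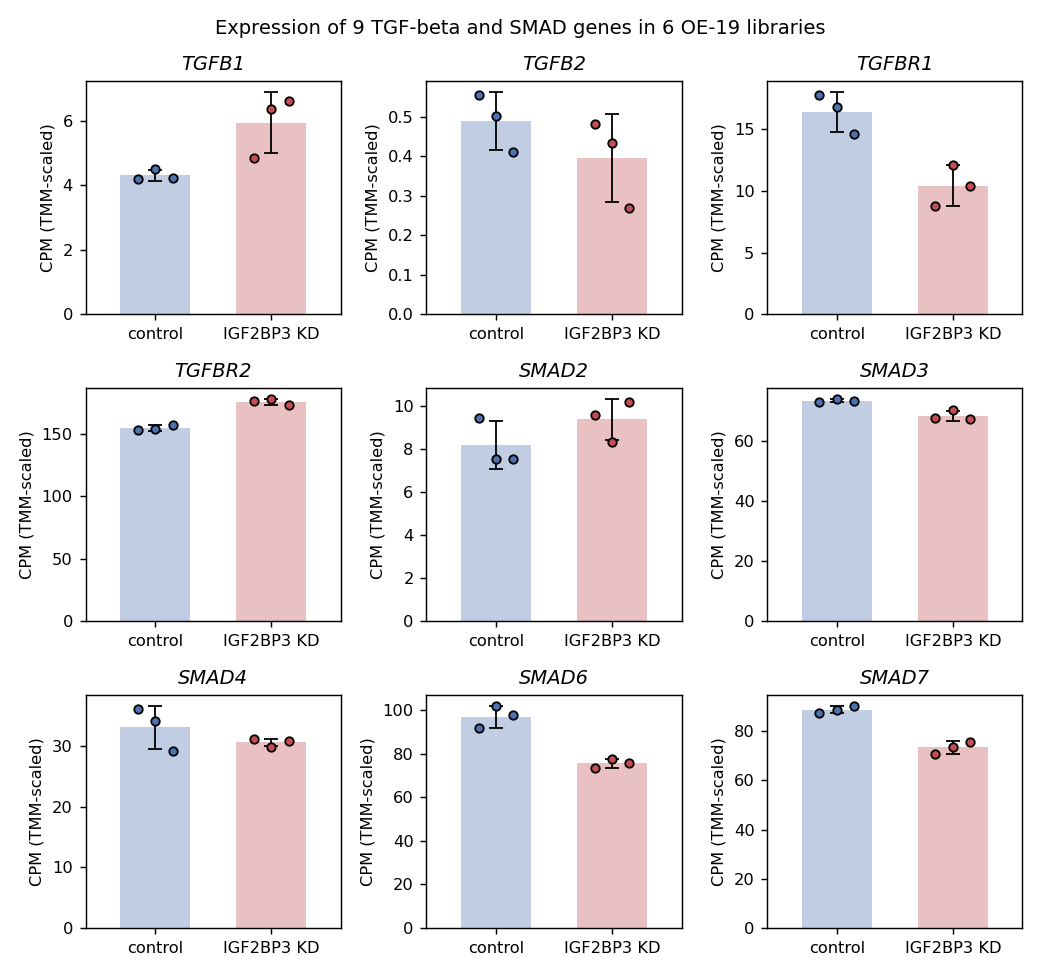
TMM-scaled CPM (y axis, from 0) of each of the 9 genes, 1 panel a gene, with a point for each library, a bar for the mean of the 3 libraries of a group and an error bar for their SD. The groups are apart in *TGFBR1*, *SMAD6*, *SMAD7* and *SMAD3*, which lie lower in IGF2BP3 KD libraries, and in *TGFBR2* and *TGFB1*, which lie higher, while those of *SMAD2*, *SMAD4* and *TGFB2* overlap.

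Neither inhibitory SMAD holds GATTACT or ACACATC in its 3′ UTR, and both hold TGGAC, which is common at their length. *SMAD6* holds TGGAC at 2 places and *SMAD7* at 1, all in the last exon, exon 4 of 4. The word is not particular to the genes that fell. *TGFBR2*, which was called higher, holds it at 3 places, *SMAD3* at 3, *TGFBR1* at 4, *SMAD4* at 5 and *SMAD2* at 20. At similar length, 67.9% of 1963 3′ UTRs for *SMAD6* and 71.4% of 2065 for *SMAD7* hold it. The promoter of *SMAD6* differed from those of the other genes in holding GTCTAGAC, the palindromic form of the SMAD-binding element, which reads the same on both strands. It starts 12 bases before the start site. Of 35116 RefSeq promoter windows of 300 bases around a start site (GRCh38.p14), 71 or 0.202% hold this word, and no window of the other 8 genes does. Sequence outside these windows was not searched, so *SMAD7* and the other genes may hold the word elsewhere in their promoters. The GC-rich word GGCGCC, which SMADs also bind, is held by 19.2% of the windows. At least 1 window of *SMAD2*, *SMAD3*, *SMAD4* and *TGFBR1* holds it, and none of *SMAD6*, *SMAD7*, *TGFBR2*, *TGFB1* or *TGFB2* does. The places are printed because they are the letters that the fallen inhibitors do hold, with each word in capitals.
SMAD6, promoter, chr15:66702214-66702241, plus strand: ccgccaaagtGTCTAGACtggcatatga
SMAD6, base 230 after the stop codon, chr15:66781754-66781780, plus strand: atgtgtgtataTGGACaaaacaagaaa
SMAD6, base 719 after the stop codon, chr15:66782243-66782269, plus strand: gccatttatccTGGACaagctcttcca
SMAD7, base 481 after the stop codon, chr18:48920876-48920902, minus strand: ctcctgcccctTGGACacgctcagtgg

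**Figure D3:**
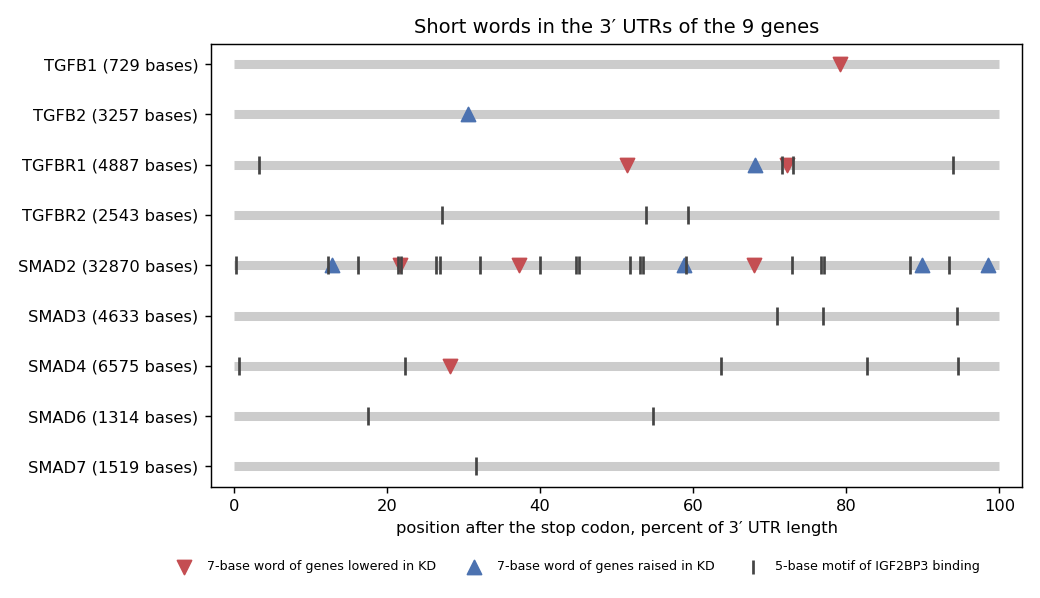
Places of the 3 words in the 3′ UTR of each of the 9 genes, drawn as a grey bar on which the x axis gives the distance after the stop codon as a percent of the 3′ UTR length. Red triangles stand for GATTACT, which *TGFB1*, *TGFBR1*, *SMAD2* and *SMAD4* hold. Blue triangles stand for the word ACACATC. Dark ticks stand for TGGAC, which *TGFB1* and *TGFB2* lack.

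Of the 4 genes of the 9 that hold GATTACT, 1 was called lower, and of the 5 without it, 2 were lower and 1 was higher. Their median log2 fold changes were 0.04 and -0.27. Over all coding genes, 35.1% of those that hold the word and 12.7% of those that lack it were called lower, with medians of -0.14 and 0.01. The order of the medians in the 9 genes was the reverse of that over all coding genes. With 4 genes against 5, no conclusion is drawn from it. The difference between genes with and without the word was not tested, since the word was picked on these libraries. Lengths of the 3′ UTRs were not matched in these shares.

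Set per kilobase of exon, the levels of the 9 genes in control cells spanned a wide range. *TGFBR2* at 22.6 ± 0.306 and *SMAD7* at 22.5 ± 0.383 CPM per kilobase (SD, n = 3) were highest and did not differ beyond their spread. *SMAD6* at 11.3 ± 0.585 and *SMAD3* at 7.32 ± 0.0549 CPM per kilobase followed, each apart from its neighbours. *TGFBR1* at 2.05 ± 0.202 and *SMAD4* at 1.69 ± 0.180 CPM per kilobase overlapped, and their order turned when the longest transcript was used as the length (2.53 and 3.71 CPM per kilobase).

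*TGFB1* came next with 1.32 ± 0.0564 CPM per kilobase, *SMAD2* with 0.225 ± 0.0303 and *TGFB2* with 0.0808 ± 0.0121 CPM per kilobase (SD, n = 3). The value of *SMAD2* rests on an exon length of 36426 bases, most of it the long annotated 3′ UTR. In IGF2BP3 KD cells the highest genes were apart, with *TGFBR2* at 25.7 ± 0.327 and *SMAD7* at 18.6 ± 0.628 CPM per kilobase (SD, n = 3). *TGFB1* at 1.82 ± 0.292, *SMAD4* at 1.56 ± 0.0323 and *TGFBR1* at 1.31 ± 0.206 CPM per kilobase (SD, n = 3) lay close together. The order of *TGFB1* and *SMAD4* turned with the longest transcript as the length (2.14 and 3.43 CPM per kilobase).

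**Figure D4:**
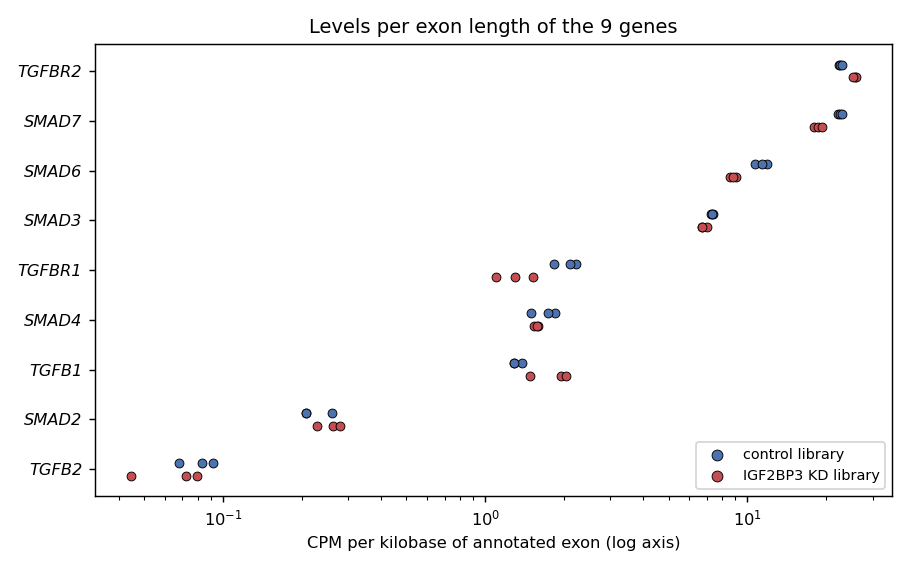
Level of each of the 9 genes in CPM per kilobase of annotated exon (x axis, log scale), with a blue point for each control library and a red point for each IGF2BP3 KD library. *TGFBR2* and *SMAD7* coincide in control libraries and lie apart in IGF2BP3 KD libraries, and *TGFB2* lies lowest.

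Around these 9 genes, 118 further genes of the pathway were listed by role, and 99 of them were tested. Of these, 26 were called lower (26.3%, against 10.6% of all genes tested) and 8 higher (8.08%, against 9.87%), and their median log2 fold change was -0.10. The lists were drawn up with earlier results of these data known, so these shares are descriptions. Of the 19778 genes tested, 13753 were coding genes with a 3′ UTR of at least 50 bases, so the 10.6% is not matched to the lists. The number called higher was 4 when no low-count filter was used, 4 without control replicate 2, IGF2BP3 KD replicate 2 or IGF2BP3 KD replicate 3, and 5 without control replicate 1.

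Among the other ligands, 13 of 18 were tested, with a median log2 fold change of -0.32. In this list 1 fell and 1 rose (7.69% each), against 10.6% lower and 9.87% higher among all genes tested. That median rests in part on genes near the floor, with at most 20 counts in any library. These were *INHBE* (-0.86), *INHA* (-0.66), *BMP6* (-0.65) and *MSTN* (-0.55), none of them called. The remaining ligands without a call were *AMH* (-0.69), *BMP2* (-0.32), *BMP8B* (-0.09), *INHBB* (-0.01), *TGFB3* (0.08), *BMP4* (0.11) and *GDF11* (0.16). *GDF15*, a distant member of the TGF-β family made under stress, fell from 55.1 ± 2.75 to 35.9 ± 1.15 CPM (SD, n = 3), a log2 fold change of -0.62 (SE 0.06, adjusted p = 2.0e-05). *BMP7*, a bone morphogenetic protein, rose from 56.2 ± 0.614 to 70.5 ± 4.11 CPM (SD, n = 3), a log2 fold change of 0.33 (SE 0.05, adjusted p = 8.7e-04).

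Of the genes that store, release or trap the ligands, 12 of 18 were tested, with a median of -0.05. In this list 2 were lower and 1 higher, against 10.6% and 9.87% of all genes tested. Both genes that fell encode activators of latent TGF-β, but 9 genes of the list were not called. Among these were *ITGAV* (log2 fold change -0.23, adjusted p = 0.468), *ITGB8* (-0.72, adjusted p = 0.0917) and *FURIN* (-0.04, adjusted p = 0.513). *THBS1*, thrombospondin 1, fell from 54.4 ± 1.49 to 32.2 ± 2.79 CPM (SD, n = 3), a log2 fold change of -0.76 (SE 0.07, adjusted p = 1.6e-05). *ITGB6*, a subunit of the integrin that frees TGF-β from its latent complex, fell from 33.4 ± 1.91 to 23.9 ± 2.43 CPM (log2 fold change -0.48, adjusted p = 0.00129). *LTBP4*, a latent TGF-β binding protein, was called higher with a log2 fold change of 0.20 (adjusted p = 0.0207). That call was lost without control replicate 2 (0.055) or IGF2BP3 KD replicate 1 (0.0634), 2 (0.064) or 3 (0.0824), where each value in parentheses is an adjusted p. Exons of another gene cover 16.7% of *ITGB6*, and those of *FSIP1* and *THBS1-AS1* cover 7.58% of *THBS1*.

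Of the other receptors and co-receptors, 12 of 13 were tested, with a median of 0.12. Calls were 2 lower and 1 higher, against 10.6% and 9.87% of all genes tested. *BMPR2*, the type II receptor of BMPs, fell from 58.8 ± 0.862 to 51.1 ± 0.902 CPM (log2 fold change -0.20, SE 0.05, adjusted p = 0.00822). *ACVR2A*, a type II receptor of activins, was called lower with a log2 fold change of -0.40 (adjusted p = 0.017), a call lost at the adjusted p in parentheses without control replicate 1 (0.0646), control replicate 3 (0.0614), IGF2BP3 KD replicate 1 (0.0665) or IGF2BP3 KD replicate 2 (0.0721). *TGFBR3*, the co-receptor betaglycan, was called higher with a log2 fold change of 0.26 (adjusted p = 0.0329). Its call held only without control replicate 3, and the adjusted p was 0.114 and 0.115 without control replicates 1 and 2, and 0.0801, 0.0609 and 0.129 without IGF2BP3 KD replicates 1, 2 and 3.

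Of the other SMADs and the nuclear partners of SMADs, 14 of 15 were tested, with a median of -0.14. Calls were 5 lower and 1 higher, against 10.6% and 9.87% of all genes tested. *SMAD1* and *SMAD5*, which carry the BMP signal, did not pass the test, with log2 fold changes of -0.11 (95% confidence interval -0.24 to 0.02) and -0.06 (-0.18 to 0.06). *ZFYVE9*, also called SARA, which presents SMAD2 and SMAD3 to the receptor, fell from 12.9 ± 0.831 to 8.08 ± 0.383 CPM (SD, n = 3), a log2 fold change of -0.68 (SE 0.10, adjusted p = 4.4e-04). *EP300*, a histone acetyltransferase used by SMADs as co-activator, fell by 0.15 on the log2 scale (adjusted p = 0.00879).

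The related co-repressors *SKI* and *SKIL* moved apart. *SKI* rose from 60.3 ± 1.37 to 78.2 ± 2.75 CPM (SD, n = 3), a log2 fold change of 0.37 (SE 0.05, adjusted p = 1.5e-04). *SKIL*, which encodes SnoN and is itself raised by TGF-β, was at 138, 119 and 126 CPM in control replicates 1 to 3 and at 92.2, 91.0 and 82.5 CPM in IGF2BP3 KD replicates 1 to 3, a log2 fold change of -0.53 (SE 0.06, adjusted p = 8.6e-05). The remaining lower genes of this list, named after their values were seen, were *SMAD9* (log2 fold change -0.37, adjusted p = 0.0103) and *TRIM33* (-0.20, adjusted p = 0.012).

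All 13 genes for turnover and dephosphorylation of receptors and SMADs were tested, and the median was -0.06. In this list 2 fell and 1 rose, against 10.6% lower and 9.87% higher among all genes tested. *NEDD4L*, a ubiquitin ligase that acts on SMAD2 and SMAD3, fell from 55.2 ± 2.24 to 44.9 ± 3.99 CPM (log2 fold change -0.30, SE 0.07, adjusted p = 0.00814). The related *WWP1* rose from 232 ± 11.8 to 263 ± 7.28 CPM (log2 fold change 0.18, SE 0.04, adjusted p = 0.00568). *RNF111*, also called Arkadia, a ligase that removes SMAD7, SKI and SnoN, was called lower with a log2 fold change of -0.39 (adjusted p = 0.0187). Its adjusted p was 0.0704 without control replicate 1, 0.078 without control replicate 3, 0.0651 without IGF2BP3 KD replicate 2 and 0.0649 without IGF2BP3 KD replicate 3.

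In the non-SMAD branch, the kinases and GTPases that TGF-β receptors also engage, all 10 genes were tested and the median was -0.14. In this branch 4 fell and none rose, against 10.6% lower and 9.87% higher among all genes tested. *RHOA*, a small GTPase that controls the actin cytoskeleton, fell from 418 ± 6.67 to 172 ± 4.54 CPM (SD, n = 3), a log2 fold change of -1.28 (SE 0.03, adjusted p = 8.4e-10). *ROCK1*, its effector kinase, fell by 0.31 on the log2 scale (adjusted p = 7.9e-05). *MAPK14*, the p38α kinase, and *PAK2*, a kinase driven by small GTPases, fell by 0.31 (adjusted p = 0.00135) and 0.17 (adjusted p = 0.00629). Exons of other genes cover 19.0% of *RHOA*.

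**Figure D5:**
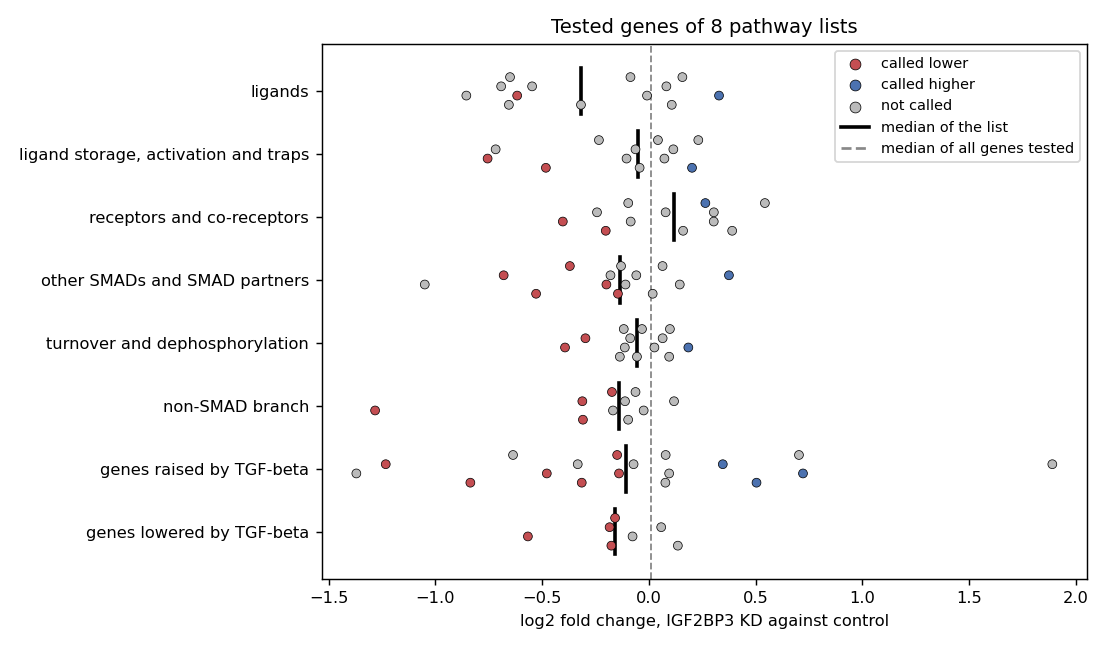
Log2 fold change (x axis, IGF2BP3 KD against control) of each tested gene of the 8 lists of further pathway genes, with red points for genes called lower, blue for higher and grey for not called, a black line for the median of each list and a dashed line for the median of all genes tested. *RHOA* at -1.28 is the lowest point of the non-SMAD branch, and genes raised by TGF-β spread on both sides.

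Genes known to be raised by TGF-β moved in both directions, with 18 of 24 tested, 6 lower, 3 higher and a median of -0.11, against 10.6% lower and 9.87% higher among all genes tested. The number lower was 4 without control replicate 2 or 3 or any 1 IGF2BP3 KD replicate, and the number higher was 1 without control replicate 1 or 2 or IGF2BP3 KD replicate 2 or 3. *CCN2*, a secreted matrix-associated protein, was at 16.6, 19.4 and 17.9 CPM in control replicates 1 to 3 and at 9.41, 9.87 and 10.9 CPM in IGF2BP3 KD replicates 1 to 3 (log2 fold change -0.84, SE 0.09, adjusted p = 7.7e-05). *TGFBI*, a matrix protein named for its induction by TGF-β, was at 9.99, 9.53 and 8.57 CPM in control and at 3.85, 4.32 and 3.78 CPM in IGF2BP3 KD replicates 1 to 3 (log2 fold change -1.23, SE 0.13, adjusted p = 4.7e-05). In both genes the groups lay well apart, and exons of another gene cover 11.9% of *CCN2*. *CDKN2B*, the cell cycle inhibitor p15, fell from 24.7 ± 1.73 to 17.7 ± 1.44 CPM (log2 fold change -0.48, adjusted p = 0.00151). *CDKN1A*, the inhibitor p21, did not pass the test (log2 fold change 0.08, 95% confidence interval -0.01 to 0.17, adjusted p = 0.210). *COL1A1*, a fibrillar collagen gene, rose from 21.7 ± 1.65 to 30.8 ± 2.32 CPM (log2 fold change 0.50, SE 0.08, adjusted p = 7.8e-04).

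*COL1A1* is also a fibroblast marker. The 7 fibroblast markers summed to 21.0 to 24.4 CPM in control and 30.1 to 34.7 CPM in IGF2BP3 KD cells, nearly all of it *COL1A1*, and *COL1A2* and *LUM* had no count in any library. In bulk RNA, a change in the share of cells that express a gene and a change in its RNA per cell cannot be told apart.

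The other called genes of this list are named after their values were seen. *KLF10*, an early TGF-β response gene, fell by 0.31 on the log2 scale (adjusted p = 0.0019). *FN1*, which encodes fibronectin, rose from 2.31 to 3.80 CPM in mean (log2 fold change 0.72, SE 0.22, adjusted p = 0.0354), a call lost at the adjusted p in parentheses without control replicate 1 (0.108), control replicate 2 (0.127), IGF2BP3 KD replicate 2 (0.138) or IGF2BP3 KD replicate 3 (0.0941). *TGM2*, transglutaminase 2, had a log2 fold change of 0.35 (adjusted p = 0.0348), and its adjusted p was 0.0710, 0.127 and 0.0513 without control replicates 1, 2 and 3 and 0.0836 and 0.128 without IGF2BP3 KD replicates 2 and 3. *JUNB* and *BHLHE40*, both transcription factors, had log2 fold changes of -0.14 (adjusted p = 0.044) and -0.15 (adjusted p = 0.028). The call of *JUNB* was lost without control replicate 2 (0.0954) or 3 (0.167) or IGF2BP3 KD replicate 1 (0.0990), 2 (0.141) or 3 (0.0685). That of *BHLHE40* was lost without control replicate 2 (0.0620) or 3 (0.0769) or IGF2BP3 KD replicate 1 (0.0666), 2 (0.0729) or 3 (0.0662). Exons of other genes cover 14.2% of *JUNB* and 12.8% of *BHLHE40*.

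Of 7 genes known to be lowered by TGF-β in epithelial cells, 4 fell and none rose, against 10.6% lower and 9.87% higher among all genes tested. The median was -0.16, and the counts were the same when any 1 library was left out. The list is small. *ID1*, an inhibitor of differentiation factors that BMPs raise, fell from 326 ± 7.70 to 288 ± 15.8 CPM (SD, n = 3), a log2 fold change of -0.18 (SE 0.04, adjusted p = 0.00765). Its relatives *ID2* and *ID3* fell by 0.18 (adjusted p = 0.00266) and 0.16 (adjusted p = 0.00306) on the log2 scale. *CDC25A*, a phosphatase that promotes the step from G1 to S phase of the cell cycle, fell by 0.57 on the log2 scale (adjusted p = 3.1e-04). The study picked this gene from these libraries, so its direction here is not independent evidence. The paper also reported its fall by qRT-PCR and immunoblot in OE-19 and SK-GT4 cells.

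Over the 6 libraries, the genes whose level ran closest to that of *SMAD6*, among 93 genes of the pathway, were *ID3* (Pearson r = 0.989), *GDF15* (r = 0.987) and *CCN2* (r = 0.985), on the log2 scale of CPM with 0.5 added. These correlations are over 6 libraries in 2 groups that differ in all 4 genes, and they describe that difference.

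Among the 99 tested genes of the lists, 10 hold GATTACT in the 3′ UTR, and 6 of these were called lower and none higher. Of the 89 that lack it, 20 were called lower (22.5%) and 8 higher. The 6 lower genes were *RHOA*, *SKIL*, *EP300*, *MAPK14*, *TRIM33* and *ACVR2A*, which holds it at 2 places, and the other 4 were *PPM1A*, *SMURF2*, *TRAF6* and *USP15*. Over all coding genes, 35.1% of those with the word were called lower and 6.72% higher. Without the word, 12.7% were lower and 13.6% higher. Both GATTACT and ACACATC were picked on these libraries, so the shares are descriptions. ACACATC is held by 12 genes of the lists, of which 3 were lower (25%) and none higher, against 26.4% lower and 9.2% higher among the list genes that lack it. Over all coding genes with that word, 10.7% were called lower and 28% higher. None of the shares in this paragraph was matched for 3′ UTR length.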

How the data were processed

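The authors deposited raw counts per gene, without normalization, for 6 poly(A) RNA-seq libraries of OE-19 cells. The submitters' processing notes name fastp, HISAT2, featureCounts and hg38; versions, annotation release and strand setting are not given in the sources used here. The deposited table had 60612 entries, of which 132 repeats were left out. The kit marks strand, but reads of overlapping genes could be misassigned. The counts were tested with edgeR 4.0.16 (R 4.3.3): TMM scaling, filterByExpr (minimum count 10, minimum total 15), glmQLFit and glmQLFTest on all 6 libraries, and Benjamini-Hochberg adjustment over 19778 genes, threshold 0.05. The steps were tested on simulated data. Totals were 53424071 to 69989087 and limit the precision of genes with few counts. The square root of the common dispersion was 0.148. No library duplicated another, since the chi-square per degree of freedom between libraries of a group was 9.86 to 17.6. Alternatives were DESeq2 1.42.0, RLE scaling, other filters, the replicate block and each library left out. The 9 genes and the lists were chosen with earlier results of these data known. Named were the 9 genes, *IGF2BP3*, per list the called genes of smallest p (up to 4, mean of 1 CPM or more), and *CCN2*, *SKIL*, *CDKN1A*, *ID1*, *TGFBR3*, *SMAD1* and *SMAD5*; another item of this rule is not reported here. Positions and 3′ UTRs came from GENCODE v44 on hg38 and promoters from RefSeq (GRCh38.p14). The 4 marker lists were epithelial, fibroblast, endothelial and immune; the immune markers summed to 2488 to 2711 CPM in control and 2543 to 2629 CPM in IGF2BP3 KD cells.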

Additional observations from a re-analysis of the deposited data

How the results depend on the processing

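The 3 genes of the 9 called lower were called lower under every alternative. The number called higher was 1, against 2 with DESeq2, 2 with at least 10 counts in every library, and 1 to 2 when each library was left out, the added gene being *TGFB1*. The number of further pathway genes called higher was 8, against 4 with no low-count filter and 4 to 8 when each library was left out. Without that filter, edgeR's adjusted p was 0.0737 for *LTBP4*, 0.0880 for *TGFBR3*, 0.0886 for *TGM2*, 0.101 for *FN1* and 0.0667 for *JUNB*, whose calls were lost; more genes then enter the adjustment. No result recomputed under these alternatives changed direction. The replicate numbers did not pair the libraries, since the deviations of same-numbered libraries had correlations of -0.0171, -0.0512 and -0.0415. With the replicate number as a block, 3 of the 9 genes were lower and 1 higher, and 27 pathway genes were lower and 9 higher. Over all tested genes, 2416 were lower and 2074 higher with DESeq2, and 1768 lower and 1354 higher with no low-count filter, against 2088 and 1953. The depth limits *TGFB2*, which had few counts.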
